A study of Mus musculus with 6 samples.

Results

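*Apoa1*, *Apoa4*, *Apoc2*, *Apoc3*, *Apob*, *Mttp* and *Sar1b*, 7 of the 32285 genes measured, code for apolipoproteins and for proteins that assemble and export the chylomicron. They were chosen by name, though with earlier results of these data known, and all 7 were measured in every library. The study captured RNA of single jejunal epithelial cells from wildtype male C57BL/6J mice of about 30 weeks, all fed their diet for 16 weeks before surgery, sampled 5 weeks after it and fasted overnight. Mice of the LFD sham group ate a low-fat diet and had a sham operation, those of the HFD sham group a high-fat diet and a sham operation, and those of the HFD VSG group the high-fat diet and a vertical sleeve gastrectomy (VSG), which removes most of the stomach along its greater curvature. Cells of 3, 3 and 2 mice of these groups were pooled, and each pool gave 1 library labelled crypts and 1 labelled villi. A condition was therefore represented by 1 library per compartment, and without a measure of how mice differ no test was made and no p-value is given.

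Chylomicrons carry dietary fat out of the small intestine. In the endoplasmic reticulum of the enterocyte, microsomal triglyceride transfer protein (*Mttp*) loads lipid onto apolipoprotein B (*Apob*), the structural protein of the particle, and the small GTPase encoded by *Sar1b* drives the coat of vesicles that takes particles towards the Golgi. Apolipoproteins A-I (*Apoa1*) and A-IV (*Apoa4*) join the particle surface, while C-II (*Apoc2*) activates and C-III (*Apoc3*) inhibits lipoprotein lipase, the enzyme that later unloads the fat in the circulation.

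*Apoa1*, *Apoc3* and *Apoa4* lie side by side on chromosome 9 of the GRCm38 (mm10) mouse genome, at 46228580 to 46230466 (plus strand), 46232933 to 46235636 (minus strand) and 46240696 to 46243459 (plus strand). *Apoc2* lies on chromosome 7 at 19671579 to 19677941 (minus strand), *Apob* on chromosome 12 at 7977648 to 8016835 (plus strand), *Mttp* on chromosome 3 at 138089854 to 138144968 (minus strand) and *Sar1b* on chromosome 11 at 51763687 to 51791925 (plus strand). The end of *Apoa4* overlaps the antisense gene *Gm10680*, and its start the gene model *Gm47528* on the other strand. *Mttp* overlaps *Gm43691* and *Trmt10a* on the other strand, and *Apoc2* shares its strand with the overlapping gene model *Gm44805*. Neither *Gm47528* nor *Gm44805* was among the counted genes. The sequences upstream of 4 of the genes are shown because *Apoa4* and *Apoc2* had the highest ratios with diet and *Apob* the lowest with surgery in the villus-labelled cells, whereas the ratios of *Apoa1*, a neighbour of *Apoa4*, were smaller with diet. They come from RefSeq (GRCm38.p6), where 6 of the 7 genes had an entry (not *Apoc3*). Each runs 5′ to 3′ on the strand of its gene and stops before the first annotated start of that gene. The *Apoc2* stretch lies inside *Gm44805* and the *Apoa4* stretch inside *Gm47528*. Capitals mark matches to CAAAGNNCA (a type of site bound by HNF4 factors), AGGTCA (the repeated unit of nuclear receptor sites) and TATAAA, searched on both strands.
Apoa1, chr9:46228380-46228579, plus strand:
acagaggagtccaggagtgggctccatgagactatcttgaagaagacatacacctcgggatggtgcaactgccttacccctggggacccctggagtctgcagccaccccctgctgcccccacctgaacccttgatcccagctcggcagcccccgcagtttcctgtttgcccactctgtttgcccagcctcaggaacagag
Apoa4, chr9:46240594-46240695, plus strand:
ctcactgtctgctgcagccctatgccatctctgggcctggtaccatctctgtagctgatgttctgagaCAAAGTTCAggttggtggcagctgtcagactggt
Apoc2, chr7:19677942-19678191, minus strand:
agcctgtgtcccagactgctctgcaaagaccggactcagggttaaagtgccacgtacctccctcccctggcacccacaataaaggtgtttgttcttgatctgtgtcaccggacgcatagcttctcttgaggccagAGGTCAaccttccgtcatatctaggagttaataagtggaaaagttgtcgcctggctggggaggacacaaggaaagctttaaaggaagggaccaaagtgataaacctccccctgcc
Apob, chr12:7977427-7977647, plus strand:
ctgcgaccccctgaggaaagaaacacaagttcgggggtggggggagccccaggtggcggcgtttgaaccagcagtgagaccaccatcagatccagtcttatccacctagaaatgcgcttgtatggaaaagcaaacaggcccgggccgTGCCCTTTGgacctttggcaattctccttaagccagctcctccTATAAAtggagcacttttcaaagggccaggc
The *Apoa1* stretch held none of the 3 motifs. CAAAGNNCA began 182 bases before the RefSeq start of *Apoa4* and occurred in 6.36% of 32851 promoters of 300 bases. Another match, on the opposite strand, began 103 bases before the start of *Apob*. AGGTCA (16.3% of promoters) began 115 bases before the *Apoc2* start and TATAAA (13.6%) lay upstream of *Apob*. A second AGGTCA began at base 43 after the *Apoc2* start, outside the stretch shown but inside the 300 bases searched. The letters searched were chosen with these sequences in view, and a match describes the sequence only.

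The libraries were uneven in ways that touch every value below. Called barcodes held 60522766 to 155522445 unique molecular identifiers (UMIs, 1 per captured RNA molecule), and the median called barcode held between 3622.5 (HFD sham villi) and 15202 (HFD VSG villi). The compartment labels went against the cells: stem-like and Paneth-like cells, which belong to crypts, were more numerous in the villus-labelled library of all 3 conditions (269 against 46 stem-like cells in LFD sham and 458 against 147 in HFD VSG), and for this reason a library is called crypt-labelled or villus-labelled, after its label alone. Between 17 and 43 barcodes were shared by any pair of libraries, at most 0.450% of the smaller. The study estimated larger fractions of RNA from outside the cells (free RNA) in both HFD sham libraries than in those of the other groups. After filters 23473 cells remained, of which 13521 (1632 to 3289 per library) were enterocyte-like by 10 of 10 brush border and nutrient-uptake markers. The 7 genes were left out of the genes used for clustering.

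Each of the 7 genes was highest in enterocyte-like cells in every library, among the named cell classes with at least 20 cells. Levels are UMIs of the gene per 1000000 UMIs of all genes (CPM), each summed over the cells of a class, and because the 3′ chemistry counts each molecule once, levels of different genes are set side by side without division by length. In enterocyte-like cells the 7 genes together took 3.76%, 3.76% and 4.44% of all UMIs in the crypt-labelled LFD sham, HFD sham and HFD VSG libraries, and 2.29%, 2.81% and 1.43% in the villus-labelled libraries in the same order. *Apoa1* was the most abundant in all 6 libraries and *Sar1b* the least. In 5 of 6 libraries *Apoa4* exceeded *Apob*, the exception being the LFD sham villi.

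*Apoa1*, coding for the main protein of high-density lipoprotein, was measured at 18546, 17523 and 19158 CPM in the crypt-labelled LFD sham, HFD sham and HFD VSG enterocyte-like cells and at 12481, 14452 and 8089 in the villus-labelled ones. *Apoa4*, whose product is secreted on fat absorption, had 6561, 8160 and 11292 CPM in the crypt-labelled libraries and 3019, 4673 and 2226 in the villus-labelled libraries. The highest level of both was thus in the HFD VSG crypts and the lowest in the HFD VSG villi.

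The C apolipoproteins differed from each other in their order over the libraries. *Apoc2* was at 1467, 2826 and 4401 CPM in crypt-labelled LFD sham, HFD sham and HFD VSG cells and at 747, 1626 and 996 in villus-labelled cells. *Apoc3* stood at 2850, 2043 and 1987 and at 1393, 1262 and 623. The activator of lipoprotein lipase was thus lowest in LFD sham in both compartments, and its inhibitor was highest there. In villus-labelled cells with at most 10% mitochondrial UMIs, however, *Apoc3* was lower in LFD sham (869 CPM) than in HFD sham (1037).

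Of the lipid loading and export genes, *Apob* and *Mttp* were lowest in the HFD VSG villi. *Apob* was at 6362, 5299 and 5864 CPM in the crypt-labelled libraries and at 3564, 4221 and 1328 in the villus-labelled libraries. *Mttp* was at 1500, 1406 and 1361 and at 1441, 1521 and 819. For *Sar1b* the levels were 269.8, 320.1 and 296.7 in crypt-labelled and 228.1, 311.0 and 256.4 in villus-labelled cells, the smallest span of the 7. Exact 95% Poisson intervals of these sums, which cover counting error only, were narrow: the widest relative to its level, that of *Sar1b* in the LFD sham villi, ran from 222.1 to 234.3.

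**Figure D1:**
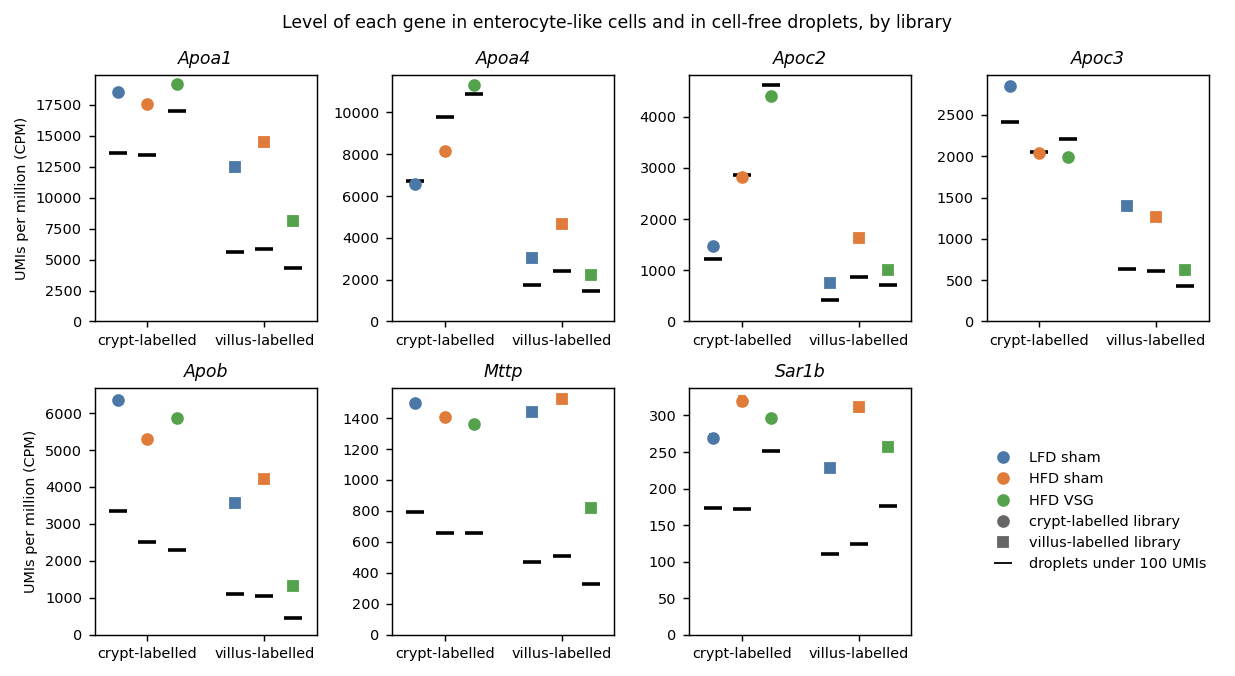
Levels of the 7 genes in CPM (linear axes from 0) in enterocyte-like cells of each library, circles for crypt-labelled and squares for villus-labelled libraries, with exact 95% Poisson intervals that are mostly smaller than the symbols. Black dashes are the levels in droplets with fewer than 100 UMIs of the same library. *Apoc2* stood at 4401 in the HFD VSG crypts against 1467 in the LFD sham crypts, and *Apob* at 1328 in the HFD VSG villi against 4221 in the HFD sham villi.

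Across the named cell classes with at least 20 cells, enterocyte-like cells held the highest level of each of the 7 genes in every library. Of 2 unnamed clusters, set aside for genes of damaged droplets, cluster 3 was higher for *Apob* (7483 against 6362 CPM) and *Mttp* in the LFD sham crypts, for *Apoa1*, *Apoa4* (8714 against 8160) and *Apob* in the HFD sham crypts, and for *Mttp* in the HFD VSG crypts and HFD sham villi. Cluster 10 had immune as its best class (12 of 12 markers over all libraries). Its enterocyte markers nevertheless exceeded its immune markers in every library except the HFD VSG villi (3066 and 15019 CPM). In the HFD VSG crypts its 46 cells held 17322 CPM of enterocyte and 115 of immune markers. Cluster 10 was higher there for *Apoa1*, *Apoa4* (14220 against 11292), *Apoc2*, *Apoc3* and *Apob*. *Apoa1* was a median of 30.9 times higher in enterocyte-like than in stem-like cells (13.6 to 82.5 over the 6 libraries), *Apoc3* 35.8 times and *Apoc2* 32.4 times. Among secretory cells, goblet-like cells held a median of 179 and Paneth-like cells of 213 CPM of *Apoc2*, against 1546 in enterocyte-like cells. *Mttp* and *Sar1b* differed least between enterocyte-like and early progenitor-like cells, which carry *Dmbt1*, *Pycard* and *Krt19*. The median ratio was 2.01 (1.37 to 3.34) for *Mttp* and 1.61 (1.54 to 1.83) for *Sar1b*. *Apob* came next at 3.7 (2.75 to 5.42), its range overlapping that of *Mttp*. The ratio was 8.48 for *Apoa1*, 10.8 for *Apoc3*, 14.2 for *Apoa4* and 21.6 for *Apoc2*. Early progenitor-like cells ranked the second for *Mttp* and *Sar1b* in all 6 libraries.

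**Figure D2:**
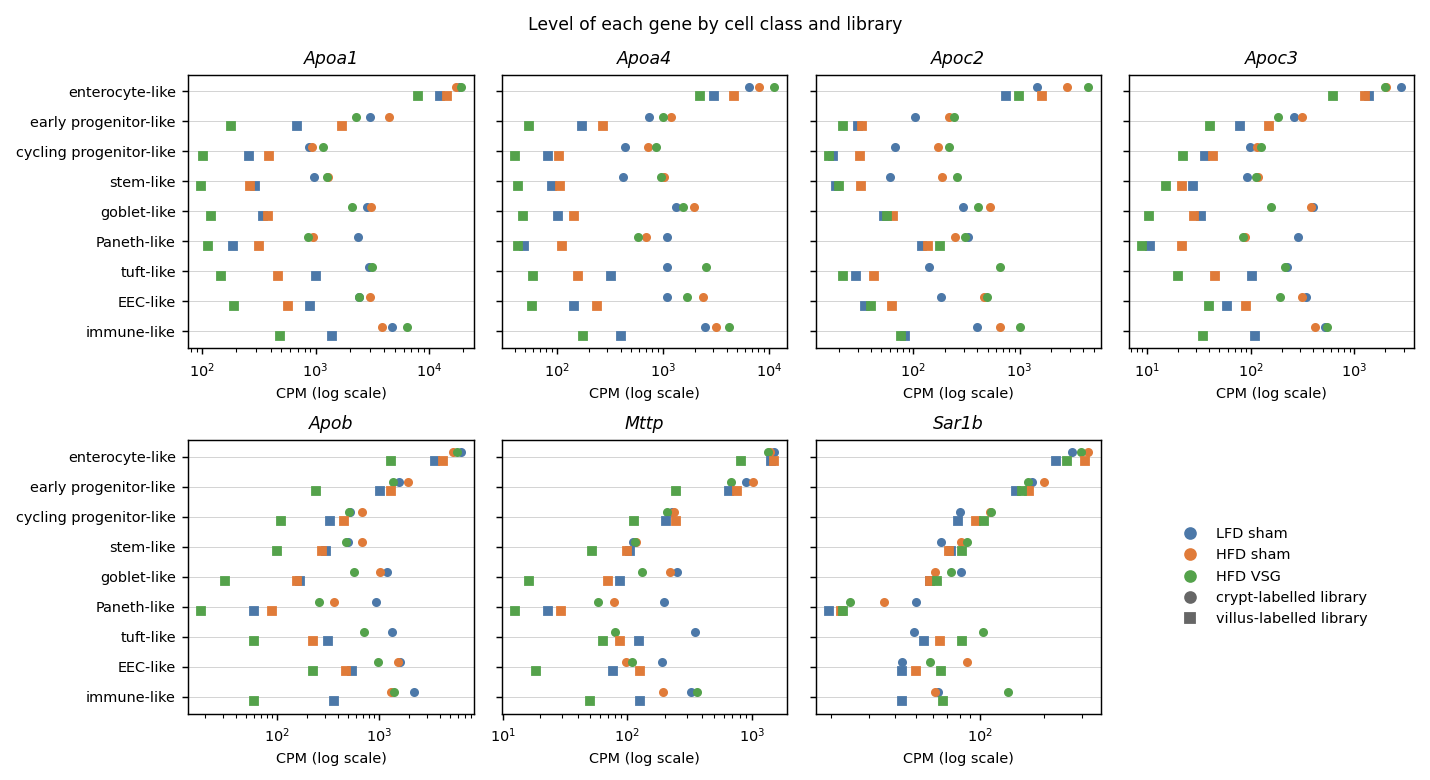
Level of each gene in CPM (log scale) by cell class, with 1 point per library (colour for condition, circles for crypt-labelled and squares for villus-labelled). Classes with fewer than 20 cells in a library or with no UMI of the gene are not drawn. Enterocyte-like cells are at the right of every panel, and for *Mttp* and *Sar1b* the early progenitor-like cells come next.

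The 7 genes were also counted in free RNA and in immune-like cells. Droplets with fewer than 100 UMIs, which hold no cell, carried the 7 genes at 2.83%, 3.15% and 3.79% of their UMIs in the crypt-labelled LFD sham, HFD sham and HFD VSG libraries and at 1.01%, 1.14% and 0.786% in the villus-labelled ones. Immune-like cells, which do not make chylomicrons, held 10778, 9698 and 14079 CPM of the 7 genes in the crypt-labelled libraries, and 2518 and 953 in the LFD sham and HFD VSG villi. The HFD sham villi held only 6 immune-like cells and were left out of this comparison.

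*Sar1b* serves secretion in many cell types, so its level in immune-like cells may hold RNA of their own. Against immune-like cells of the same library, *Mttp* was higher in early progenitor-like cells in 5 of 5 libraries (1.86 to 5.26 times), *Sar1b* in 5 of 5 (1.25 to 3.44 times) and *Apob* in 3 of 5. *Apoa4* and *Apoc2* were below the immune-like CPM there in 5 of 5 libraries. Immune-like cells were shallower, and per cell *Apoa4* had a mean of 14.3 UMIs in early progenitor-like and 9.20 in immune-like cells of the LFD sham crypts, 21.8 and 10.7 in the HFD sham crypts and 19.2 and 19.7 in the HFD VSG crypts, so the comparison with background differed between the CPM and the UMIs per cell. In stem-like cells only *Sar1b* exceeded the immune-like level in most libraries (4 of 5), and *Apoa1*, *Apoa4*, *Apoc2* and *Apoc3* did so in 0 of 5. Paneth-like cells exceeded it for *Apoc2* in 2 of 5 libraries (0.304 to 2.33 times) and for none of the other 6 genes.

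The share of cells with an *Mttp* UMI gave the same order at equal depth. After each cell was thinned to 1500 UMIs, which left out 5 enterocyte-like cells, no early progenitor-like cells and no immune-like cells of these libraries, *Mttp* was detected in 61.9%, 64.1%, 56.0%, 59.0% and 28.0% of early progenitor-like cells of the LFD sham, HFD sham and HFD VSG crypts and the LFD sham and HFD VSG villi. The corresponding shares of immune-like cells were 31.5%, 30.5%, 29.9%, 17.4% and 5.03%, and the exact 95% binomial intervals of the 2 classes did not overlap in any of the 5 libraries. Without thinning, 94.1% to 99.3% of early progenitor-like cells (median depth 16084 to 31931 UMIs) and 18.6% to 58.1% of immune-like cells (3154 to 6039 UMIs) held an *Mttp* UMI in these libraries. Enterocyte-like cells had thinned shares of 86.0%, 82.6% and 85.4% in crypt-labelled and 83.4%, 87.1% and 66.5% in villus-labelled libraries.

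Set against the droplets of its own library, *Mttp* was 1.90 to 3.08 times and *Apob* 1.91 to 4.02 times higher in enterocyte-like cells. For *Apoa4* the ratio was 0.976, 0.836 and 1.04 in the crypt-labelled LFD sham, HFD sham and HFD VSG libraries, and 1.74, 1.95 and 1.51 in the villus-labelled libraries. In the crypt-labelled libraries, free RNA was therefore about as rich in *Apoa4* as enterocyte-like cells were, and the ratios of *Apoc2* (1.20, 0.990 and 0.954) and *Apoc3* (1.18, 0.996 and 0.897) were near 1 as well. *Apoc2* in these droplets followed the cells, with 1221, 2853 and 4613 CPM in the crypt-labelled and 422, 873 and 718 in the villus-labelled libraries. Such ratios depend on which droplets are taken. Of the UMIs of the 7 genes, *Apob* made up 17.9%, 13.8% and 7.1% in crypt-labelled droplets of 200 to 2000 UMIs. In crypt-labelled droplets under 100 UMIs it made up 11.8%, 7.9% and 6.0%. In the villus-labelled libraries the shares were 14.7%, 12.9% and 5.5% against 10.9%, 9.2% and 5.7%.

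Enterocyte-like cells fell into 8 clusters, between which the levels of the 7 genes differed. Their 10 of 10 markers were counted against the cluster at the lower quartile. Against the median cluster, cluster 1 counted 7 of 10, clusters 2 and 9 counted 5 each and cluster 19 counted 2. Clusters 2, 9 and 19 were then unnamed. Cluster 9, led by *Ada*, *Nt5e* and *Slc28a2*, which mark the villus tip, held the highest *Apoa4* of the 8 clusters in every library (24289, 32663 and 32207 CPM in crypt-labelled and 15843, 24868 and 34589 in villus-labelled libraries, the last from 14 cells). It also held the lowest *Sar1b* in 5 of 6 libraries (63.8 to 135 CPM over all 6), the exception being the LFD sham villi, where cluster 19 had 1 cell. In the crypt-labelled libraries its *Mttp*, at 764, 732 and 957 CPM, was the lowest of the 8 clusters too.

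Cluster 0, led by *Cyp3a11*, *Cubn*, *Slc5a12* and *Pck1* together with *Apoc2*, *Apoa4* and *Apoc3*, had the highest *Apoc2* in the 3 crypt-labelled libraries and in the HFD sham and HFD VSG villi. Its *Apoc2* was at 2323, 4750 and 7630 CPM in crypt-labelled and at 2116, 4102 and 6305 in villus-labelled libraries, so that in both compartments the order was LFD sham, HFD sham, HFD VSG. Clusters 1 (led by *Gsta1* and *Reg3a*) and 2 (led by *Reg3b* and *Reg3g*) had lower *Apoa4*, *Apoc2* and *Apoc3* than cluster 0 in all 6 libraries, while their *Mttp* was at 1631 and 1359 CPM against 1572 in the LFD sham crypts and at 824 and 667 against 1294 in the HFD VSG villi.

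Cell by cell, the median correlation over libraries was higher between surface apolipoproteins than between any of them and *Mttp* or *Sar1b*, while single libraries ranged widely. Over enterocyte-like cells of 1 library, the Spearman correlation of CPM of *Apoa4* and *Apoc2* had a median of 0.77 over the 6 libraries (0.58 to 0.86), of *Apoa4* and *Apob* 0.74 and of *Apoa1* and *Apoa4* 0.71. For *Apoa1* and *Mttp* it was -0.10 (-0.32 to 0.74) and for *Apoa4* and *Mttp* -0.02 (-0.31 to 0.76), so that in at least 1 library these pairs exceeded the highest value of *Apoa1* and *Apoc2* (0.71). These values describe cells that share a library, its depth and its free RNA.

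Genes whose levels were most like those of each gene were sought over 64 sums of class and library by Pearson correlation of log2(CPM + 1) among 7740 genes. *Apoa1* was most like *Lct* (0.99), *Ace* (0.98) and *Cyp3a25* (0.98), *Apoa4* like *Dnase1* (0.97) and *Apoa1* (0.97), and *Apoc2* like *Dnase1* (0.93) and *Apoa4* (0.92). Among the genes most like *Apoc3* was *Apoa1* (0.98), among those most like *Apob* was *Cyp4v3* (0.97), and among those most like *Mttp* was *Enpep* (0.96). *Sar1b* was set apart by its nearest genes, *Cbr1* (0.95) and the malate dehydrogenases *Mdh2* (0.94) and *Mdh1* (0.94). *Lct* was among the markers that named enterocyte-like cells.

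The comparison of HFD sham with LFD sham asks what the diet did to these transcripts. *Apoc2* was 1.93 times higher in HFD sham in the crypt-labelled enterocyte-like cells, a log2 ratio of 0.95 (exact 95% interval 0.93 to 0.96), and 2.18 times higher in the villus-labelled cells (1.12, interval 1.10 to 1.15). *Apoa4* was 1.24 times higher in the crypt-labelled cells (0.31, interval 0.31 to 0.32) and 1.55 times higher in the villus-labelled cells (0.63, interval 0.62 to 0.64). *Sar1b* was also higher in both, by 0.25 and 0.45, while *Apoc3* was lower in both, by -0.48 and -0.14. The villus-labelled *Apoc3* ratio was above 0 under 2 of the 15 processing alternatives described below (highest 0.32). In villus-labelled cells with at most 10% mitochondrial UMIs *Apoc3* was at 869 CPM in LFD sham and 1037 in HFD sham.

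*Apoa1* (-0.08 and 0.21), *Apob* (-0.26 and 0.24) and *Mttp* (-0.09 and 0.08) had ratios of opposite sign in the crypt-labelled and villus-labelled cells. Under the processing alternatives the crypt-labelled ratio reached 0.02 for *Apoa1* and 0.14 for *Mttp*, and the villus-labelled *Mttp* ratio -0.0005. Those of *Apob* kept their signs. A log2 ratio beyond 0.5 was reached by 1 of the 7 genes in the crypt-labelled cells (*Apoc2*), where 5.55% of 9971 genes with enough counts lay above 0.5 and 6.87% below -0.5. In the villus-labelled cells 2 of 7 lay above 0.5 (*Apoc2* and *Apoa4*), with 4.55% of 10153 genes above and 10.1% below, but *Apoa4* was at 0.46 in cells thinned to 1500 UMIs. The median of the 7 genes was -0.08 and 0.24, against -0.002 and -0.04 over all these genes. *Apoc2* ranked 119 of 9971 genes from the highest in the crypt-labelled cells and 77 of 10153 in the villus-labelled cells.

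The *Apoc2* difference was present across the enterocyte-like clusters with at least 20 cells in both libraries. It was above 0 in 7 of 7 clusters of the crypt-labelled libraries (0.17 to 1.50) and in 6 of 7 clusters of the villus-labelled libraries (-0.06 to 1.83). For *Apoa4* the ratio was above 0 in 7 of 7 clusters of either compartment. *Apoc3*, by contrast, was below 0 in 7 of 7 crypt-labelled clusters (-0.84 to -0.15), and in 5 of 7 villus-labelled clusters (-0.56 to 0.41).

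The make-up of the enterocyte-like cells also differed between these libraries. From LFD sham to HFD sham the 10 enterocyte markers summed to 26763 and 18134 CPM in the crypt-labelled and to 20675 and 16061 CPM in the villus-labelled cells. The genes of damaged droplets were at 63328 and 53380 CPM in the crypt-labelled and at 62557 and 37604 CPM in the villus-labelled cells. The villus tip markers were at 364 and 447 CPM in the crypt-labelled and at 163 and 87.8 CPM in the villus-labelled cells, and cluster 2 made up 14.0% and 20.6%, and 21.5% and 30.0%, of the cells. The part of these differences in the ratios was not tested.

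Counting enterocyte-like cells as 1 class, *Apoc2* was above 0.5 in 6 of 7 classes of the crypt-labelled libraries, the exception being Paneth-like cells (-0.41), and above 0 in 8 of 8 classes of the villus-labelled libraries. In the other classes its level was mostly at or below that of immune-like cells. Paneth-like cells of the LFD sham and HFD VSG villi were above it (1.435 and 2.326 times). Free RNA changed in the same direction (*Apoc2* at 1221 against 2853 CPM in the crypt-labelled droplets). Its part in these ratios was not tested.

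**Figure D3:**
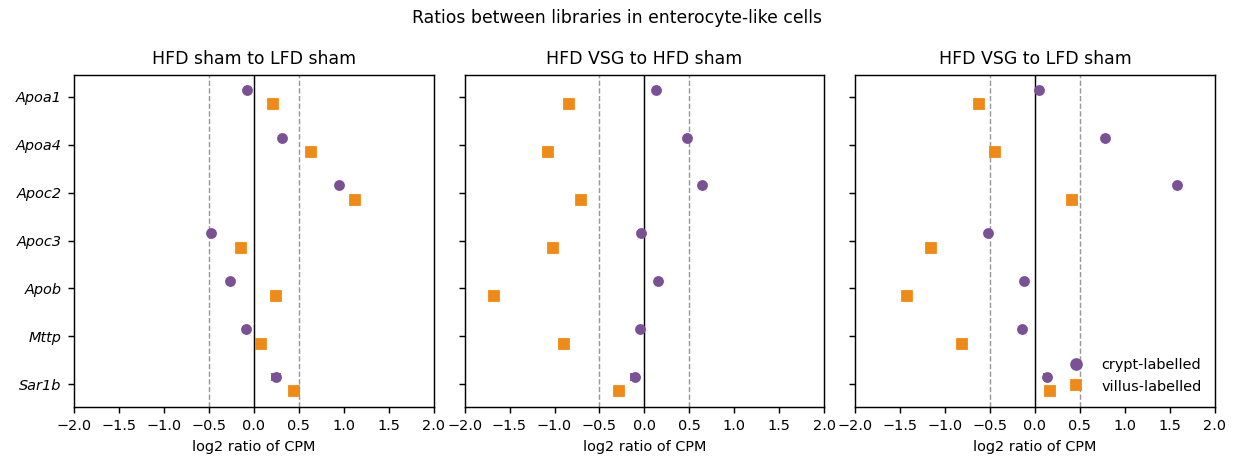
Log2 ratios of CPM between libraries in enterocyte-like cells for the 7 genes, circles for crypt-labelled and squares for villus-labelled libraries, with exact 95% intervals that cover counting error only and dashed lines at 0.5 and -0.5. In the panel of HFD sham to LFD sham *Apoc2* lies furthest right (0.95 and 1.12), and in the panel of HFD VSG to HFD sham *Apob* lies furthest left in the villus-labelled libraries (-1.67).

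The comparison of HFD VSG with HFD sham, which uses the same HFD sham libraries, gave different pictures in the 2 compartments. In the crypt-labelled enterocyte-like cells *Apoc2* was 1.56 times higher in HFD VSG than in HFD sham (0.64, interval 0.63 to 0.65) and *Apoa4* 1.38 times (0.47, interval 0.46 to 0.48). *Apoa1* (0.13) and *Apob* (0.15) were slightly higher, and *Apoc3* (-0.04), *Mttp* (-0.05) and *Sar1b* (-0.11) slightly lower. *Apoc2* alone was beyond 0.5, 1 of 7 genes, where 6.12% of genes lay above and 2.28% below, and the median of the 7 was 0.13 against 0.11 over all genes. With free RNA removed by the profile of droplets of 200 to 2000 UMIs, the *Apoc2* ratio was 0.495. It was above 0 in 7 of 7 clusters (0.12 to 0.94). From HFD sham to HFD VSG the genes of damaged droplets were at 53380 and 13987 CPM in these cells, the villus tip markers at 447 and 237 CPM and the enterocyte markers at 18134 and 18238 CPM, with a median of 12911 and 17654 UMIs per cell, and their part in the ratios was not tested.

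This crypt-labelled difference varied with the mitochondrial share of the cells. Enterocyte-like cells with at most 10% mitochondrial UMIs made up 18.8% of the HFD sham and 10.5% of the HFD VSG cells, and in them the order was the opposite: *Apoc2* was at 2309 CPM in HFD sham (387 cells) and 1569 in HFD VSG (346 cells), a log2 ratio of -0.56, and *Apoa4* at 6961 and 5084. *Apoa1* (18661 and 16247) and *Apob* (4881 and 4258) were also lower in HFD VSG in the cells up to 10%. In cells above 10% *Apoc2* was at 2951 and 4739, and *Apoa4* at 8450 and 12033. *Apoa1* (17248 and 19506) and *Apob* (5400 and 6055) were higher in HFD VSG in the cells above 10%.

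In the villus-labelled enterocyte-like cells 6 of the 7 genes were lower in HFD VSG than in HFD sham by more than 0.5, where 19.8% of genes lay below -0.5 and 23.9% above 0.5. *Apob* was 0.315 times the HFD sham level (-1.67, interval -1.68 to -1.66), a ratio below which only 1.28% of genes lay. *Apoa4* (-1.07), *Apoc3* (-1.02), *Mttp* (-0.89), *Apoa1* (-0.84) and *Apoc2* (-0.71) followed, and *Sar1b* was at -0.28. The median of the 7 genes was -0.89, against 0.01 over all genes.

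These are shares of UMIs. The HFD VSG villi were also the deepest library, with a median of 34526 UMIs per enterocyte-like cell against 14413 in the HFD sham villi, and the mean number of UMIs per cell was 289 against 208 for *Apoa1*, 79.6 against 67.3 for *Apoa4* and 29.3 against 21.9 for *Mttp*. Of the 7 genes *Apob* alone had fewer UMIs per cell, 47.5 against 60.8.

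The enterocyte-like cells of the HFD VSG villi differed from those of the HFD sham villi in make-up and quality. Cluster 0 made up 10.1% against 19.2% of them, cluster 9 0.858% against 2.42%, and clusters 1 and 2 together the larger part of both. The 10 enterocyte markers, all detected in both libraries, summed to 6697 against 16061 CPM, the 3 villus tip markers to 20.2 against 87.8, the 12 Paneth markers to 655 against 2634 and the 4 genes of damaged droplets to 9161 against 37604. Higher in HFD VSG were the 12 immune markers (30.35 against 0.72), the 9 stem markers (44.4 against 30.7) and the 10 cycling progenitor markers (100.6 against 86.7). The median mitochondrial share was 8.62% against 11.7%, and 67.2% against 24.7% of the cells had at most 10%. The part of these differences in the lower levels was not tested.

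The ratios differed between the clusters. In cluster 0 the log2 ratio of HFD VSG to HFD sham was -0.01 for *Apoa1*, 0.20 for *Apoa4*, 0.62 for *Apoc2*, 0.03 for *Apoc3* and -0.18 for *Mttp*, but -0.84 (interval -0.87 to -0.81) for *Apob*. In clusters 1, 2 and 12 it was -1.07, -1.21 and -1.33 for *Apoa1* and -1.55, -1.95 and -2.04 for *Apoa4*. *Apob* was below -0.5 in 6 of 6 clusters (-1.95 to -0.84), *Mttp* in 5 and *Apoa4* and *Apoc3* in 4.

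**Figure D4:**
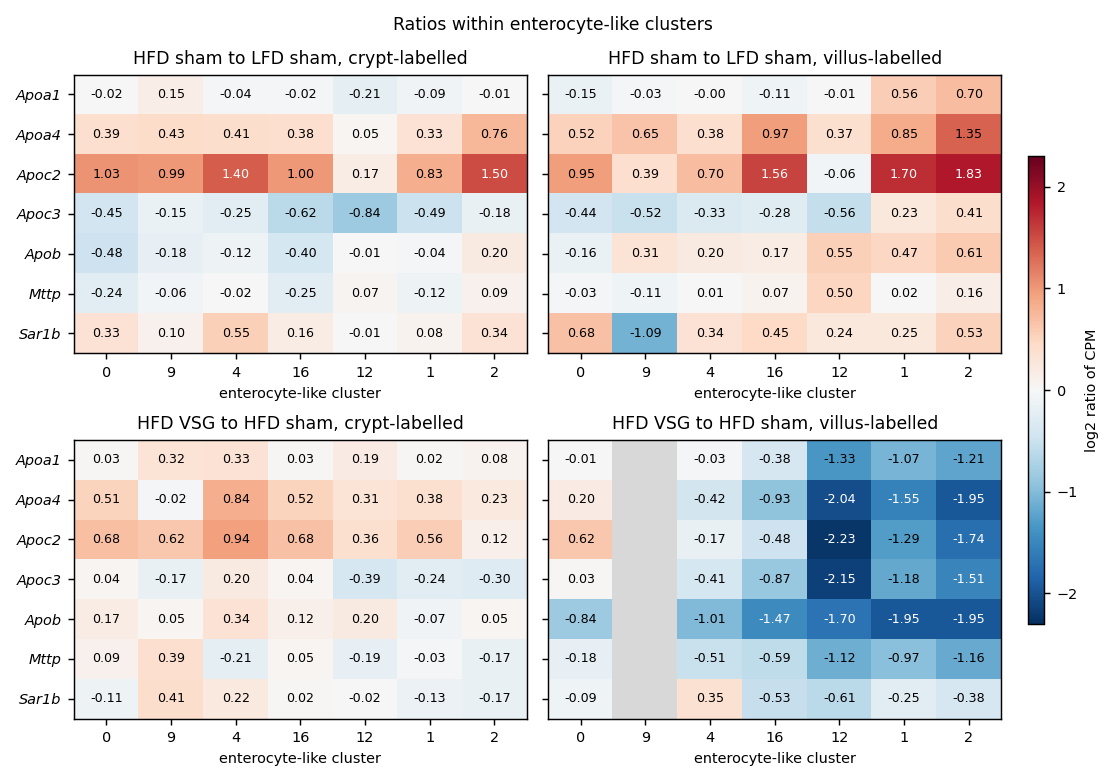
Log2 ratios of CPM within the enterocyte-like clusters with at least 20 cells in both libraries (columns) for the 7 genes (rows), red for higher and blue for lower in the library named the first, and grey where a library had fewer than 20 cells. In the villus-labelled panel of HFD VSG to HFD sham, cluster 0 is near 0 apart from *Apoc2* (0.62) and *Apob* (-0.84), and clusters 1, 2 and 12 are blue.

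Among villus-labelled enterocyte-like cells above 10% mitochondrial UMIs (1524 in HFD sham and 535 in HFD VSG), *Apoa1* was at 14731 in HFD sham and 13633 CPM in HFD VSG, and *Apoa4* at 5137 and 5124. *Apoc2* was higher in HFD VSG there (1823 and 2223), and *Apob* lower (4434 and 2376). In cells up to 10% *Apoa1* was at 13570 and 5803, *Apoa4* at 3203 and 1031 and *Apob* at 3546 and 895. *Apob* was therefore lower in HFD VSG in both ranges, while *Apoa1* and *Apoa4* differed mainly in the cells with few mitochondrial UMIs. *Mttp* (1556 and 1175 above 10%, 1410 and 673 up to 10%) was lower in both ranges as well. So were *Apoc3* (1334 and 1155, 1037 and 404) and *Sar1b* (311.6 and 256.8, 309.1 and 256.3).

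**Figure D5:**
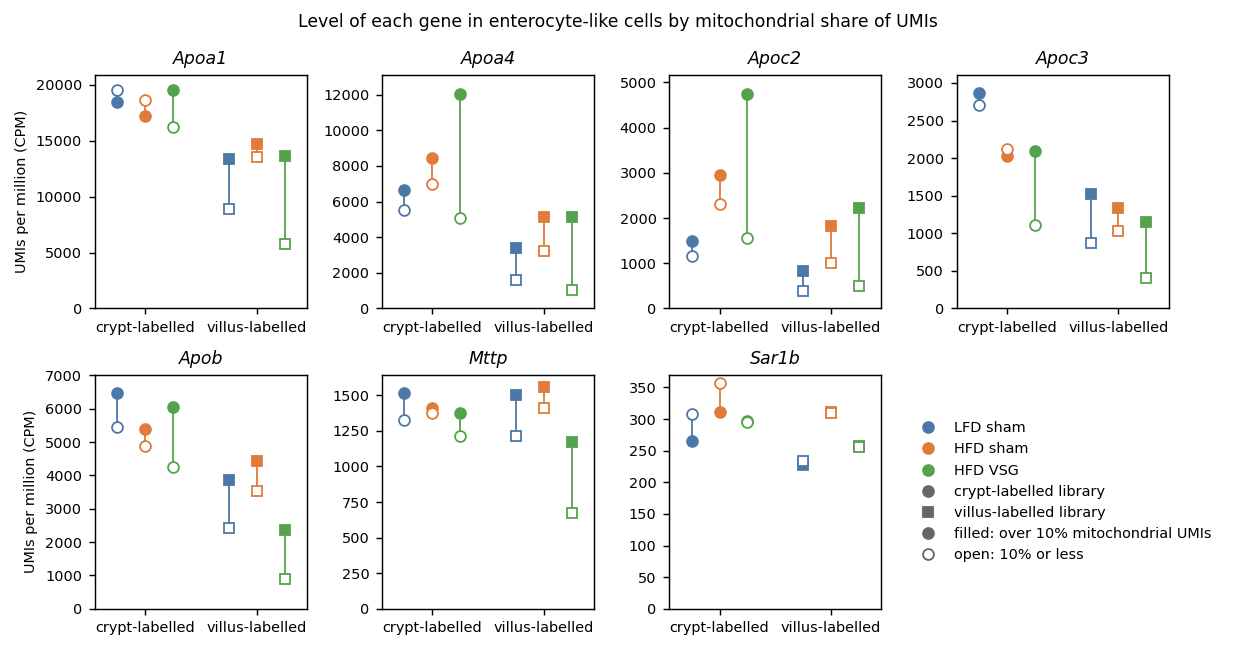
Levels of the 7 genes in CPM in enterocyte-like cells with at most 10% mitochondrial UMIs (open symbols) and above 10% (filled symbols), 1 pair joined by a line per library, circles for crypt-labelled and squares for villus-labelled. In the HFD VSG villi the open symbols lie far below the filled ones for *Apoa1* (5803 and 13633) and *Apoa4* (1031 and 5124), and for *Sar1b* they coincide (256.3 and 256.8).

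Over all villus-labelled classes, enterocyte-like cells included, *Apoa1*, *Apoa4*, *Apoc3* and *Apob* were below -0.5 in 8 of 8 classes from HFD sham to HFD VSG, *Mttp* in 7 and *Apoc2* in 6. *Sar1b* was the exception, between -0.28 (enterocyte-like) and 0.38 (EEC-like) and above 0 in 6 of 8 classes. Droplets of these libraries held 1.14% (HFD sham) and 0.786% (HFD VSG) of their UMIs in the 7 genes. The study estimated a larger fraction of free RNA in the HFD sham villi than in the HFD VSG villi. In stem-like, goblet-like and Paneth-like cells *Apoa1*, *Apoa4* and *Apoc3* exceeded the immune-like CPM in 0 of 5 libraries. *Apoa1* of goblet-like cells, for example, was at 381.5 CPM in the HFD sham and 118.1 in the HFD VSG villi. The part of free RNA in the ratios of classes other than enterocyte-like was not tested.

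HFD VSG set against LFD sham joins both steps and shares its libraries with the comparisons above. In crypt-labelled enterocyte-like cells *Apoc2* was 3.00 times the LFD sham level (1.59, interval 1.57 to 1.60), ranking 40 of 9971 genes, but at 0.43 in cells with at most 10% mitochondrial UMIs, and *Apoa4* 1.72 times (0.78, and -0.12 in those cells), with *Apoc3* at 0.697 times (-0.52). Of the 7 genes 2 were above 0.5 and 1 below -0.5, where 10.4% and 4.75% of genes lay. In villus-labelled cells 4 of 7 were below -0.5 (*Apob* -1.42, *Apoc3* -1.16, *Mttp* -0.81 and *Apoa1* -0.63) where 22.3% of genes lay, and 0 were above 0.5 where 22.1% lay, with *Apoc2* at 0.42, *Sar1b* at 0.17 and *Apoa4* at -0.44. In villus-labelled cells above 10% mitochondrial UMIs, *Apob* alone was below -0.5 (-0.70), with *Apoc3* at -0.40, *Mttp* at -0.35 and *Apoa1* at 0.025, and *Apoa4* (0.60) and *Apoc2* (1.41) were above 0.5. In cluster 0 of the villus-labelled libraries the *Apoc2* ratio was 1.58.

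Of 22 other genes of lipoprotein assembly, export and regulation, none was beyond 0.5 from LFD sham to HFD sham in the crypt-labelled enterocyte-like cells (median 0.07, with 5.55% of all genes above and 6.87% below) and 1 was above it in the villus-labelled cells (median 0.15, with 4.55% of all genes above and 10.1% below). That gene was *Plin2*, coding for a coat protein of lipid droplets, at 109 and 158 CPM (0.53), with 81.0 and 109 in the crypt-labelled cells (0.43). The cargo receptor gene *Surf4* came next, at 0.30 and 0.28, while the lowest were *Tmem41b* (-0.24) and *Hnf4g* (-0.14) in crypt-labelled and *Sec23b* (-0.33) and *Hnf4a* (-0.26) in villus-labelled cells. From HFD sham to HFD VSG 0 of 22 were beyond 0.5 in crypt-labelled cells (median 0.06, with 6.12% of all genes above and 2.28% below), with *Tmem41b* (0.25) and *Mia3* (0.20) highest and *Sec23b* (-0.12) and *A1cf* (-0.04) lowest, and 8 of 22 were below -0.5 in villus-labelled cells (median -0.20), where 19.8% of all genes lay below -0.5 and the median of all genes was 0.01. The lowest there were the coat gene *Sec24d* (115 to 59.8, -0.95) and *Hnf4g* (531 to 286, -0.89), and the highest *Sec23b* (0.16) and *Plin3* (0.13).

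Of 12 genes of fat uptake and triglyceride synthesis, 2 were above 0.5 from LFD sham to HFD sham in either compartment and 0 below, where 5.55% of all genes lay above and 6.87% below in crypt-labelled cells, and 4.55% above and 10.1% below in villus-labelled cells. The median of the 12 was 0.16 and 0.24, against -0.002 and -0.04 over all genes. *Fabp2*, the intestinal fatty acid binding protein gene, was at 24333 and 35201 CPM in crypt-labelled (0.53) and at 15761 and 25517 in villus-labelled cells (0.70). The fatty acid transporter gene *Cd36* was at 76.3 and 139 in villus-labelled cells (0.86), and *Scarb1* at only 0.942 and 2.97 in crypt-labelled cells (1.66). *Dgat2* (-0.26) and *Lpin3* (-0.06) were lowest in crypt-labelled and *Scarb1* (-0.50) and *Lpin3* (-0.04) in villus-labelled cells. From HFD sham to HFD VSG 0 of 12 were beyond 0.5 in crypt-labelled cells (median -0.11 against 0.11 over all genes, with 6.12% of all genes above and 2.28% below), with *Agpat2* (0.35) and *Fabp1* (0.14) highest and *Slc27a4* (-0.32) and *Fabp2* (-0.28) lowest, and 8 of 12 were below -0.5 in villus-labelled cells (median -0.72, with 19.8% of all genes below -0.5), led by *Cd36* (-1.45) and *Scarb1* (-1.36), with *Agpat2* (0.28) and *Fabp1* (0.16) highest.

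Other apolipoprotein genes were close to absent. Of 8, 3 had a mean of at least 50 UMIs in crypt-labelled and 2 in villus-labelled enterocyte-like cells. *Apoa2* was at 4.63 CPM in the LFD sham and 8.79 in the HFD sham crypts (0.92) and at 4.80 and 9.22 in the villi (0.94), and from HFD sham to HFD VSG its ratio was -0.09 and -0.31. *Apoc4*, a neighbour of *Apoc2*, was at 1.05 and 2.43 in the crypts (1.22), with a ratio of 0.23 from HFD sham to HFD VSG. The ratios of *Clu* in the crypts were 0.10 with diet and -0.85 with surgery, and those of *Apoe* in the villi, where its level did not exceed 4.41 CPM, were -3.69 and 1.10. The 12 immune markers in these villus-labelled enterocyte-like cells summed to 55.5, 0.72 and 30.35 CPM in LFD sham, HFD sham and HFD VSG. Their part in the *Apoe* ratios was not tested.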

How the data were processed

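Cells of the 6 libraries were captured with 10x Genomics 3′ chemistry (version 3.1). Per the labels and the submitters' processing notes, the authors used Cell Ranger 6.0.0 with mm10. The deposited values are whole-number UMI counts, given once for every barcode and once for called cells. Both sets held the same counts for a called cell, so neither scaling nor removal of free RNA preceded them. GENCODE vM21 held 32235 of the 32285 gene identifiers.

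Of 59457 called barcodes, 4794 were set aside as likely doublets by their likeness to simulated ones, and 31190 by filters on genes detected (minimum 750) and mitochondrial share (maximum 20%). The remaining cells were integrated and clustered in R 4.3.3 (sctransform 0.4.2, then Seurat 5.3.0) on 30 components of 2000 genes, none of them among the 7, at resolution 0.4. A class name required more than 50% of the class's markers, and 3 or more, at 2 times the lower-quartile cluster and detected in 10% of cells or more. A cluster with *Gm42418*, *Gm26917*, *Lars2* or *AY036118* among the 10 leading genes, a sign of damaged droplets, stayed unnamed. These thresholds were set after seeing the data, and the rebuilt classes need not match those of the study.

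UMIs were summed by class and library, and log2 ratios were taken between libraries, with sums below 3 set to 3. Classes needed 20 cells, and genes of the background a mean of 50 UMIs or more. A ratio beyond 0.5 marks size and is not a test. Exact 95% intervals (Poisson for sums, binomial for shares and ratios) cover counting error only. Those of the ratios alone were tried on simulated data, which were drawn from the Poisson counts that they assume. All 7 genes are named. Of the other gene lists, the 2 highest and 2 lowest ratios are named, with up to 3 genes most like each of the 7, some of which are not reported here. The members and lists were chosen with earlier results of these data known. Alternatives were removal of free RNA and other filters, scalings, clusterings and sizes. Calculations used Python 3.11.15 (numpy 2.4.6, pandas 2.3.3, scipy 1.17.1, scikit-learn 1.9.0), and plots matplotlib 3.10.9.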

Additional observations from a re-analysis of the deposited data

Results flagged for a closer look

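Ratios of opposite sign in the crypt-labelled and villus-labelled enterocyte-like cells drew attention. From LFD sham to HFD sham these were *Apoa1* (-0.082 in crypt-labelled and 0.21 in villus-labelled cells), *Apob* (-0.26 and 0.24) and *Mttp* (-0.093 and 0.078). Under some processing alternatives the crypt-labelled *Apoa1* ratio and both *Mttp* ratios changed sign. From HFD sham to HFD VSG they were *Apoa1* (0.13 and -0.84), *Apoa4* (0.47 and -1.07), *Apoc2* (0.64 and -0.71) and *Apob* (0.15 and -1.67). In crypt-labelled cells with at most 10% mitochondrial UMIs, however, all of these genes were lower in HFD VSG, as in the villus-labelled cells. There *Apoa1* was at 18661 CPM in HFD sham and 16247 in HFD VSG, and *Apoa4* at 6961 and 5084. *Apoc2* was at 2309 and 1569, and *Apob* at 4881 and 4258. In crypt-labelled cells above 10% all of them were higher in HFD VSG. From LFD sham to HFD VSG the ratios of opposite sign were those of *Apoa1* (0.047 and -0.63) and *Apoa4* (0.78 and -0.44). Under some processing alternatives each of these ratios changed sign. With 1 library per condition and compartment, the difference between compartments was not tested. Both libraries of a condition came from the same pool of mice, and these comparisons share libraries with each other.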

How the results depend on the processing

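Each log2 ratio was recomputed under 15 alternatives, of which 4 were chosen after seeing the data. *Apoc2* from LFD sham to HFD sham stayed above 0 in all 15, between 0.85 and 1.04 in crypt-labelled and between 0.96 and 1.51 in villus-labelled enterocyte-like cells, and *Apob* from HFD sham to HFD VSG stayed below 0 in all 15 in villus-labelled cells (-2.04 to -0.90). The ratio of *Apoc2* from HFD sham to HFD VSG changed sign in crypt-labelled cells with a maximum of 10% mitochondrial UMIs (-0.56) and in villus-labelled cells above 10% (0.29, chosen after seeing the data). From LFD sham to HFD VSG the same 2 settings changed the sign of *Apoa4* in crypt-labelled cells (-0.12) and of *Apoa1* in villus-labelled cells (0.025).

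Of the 7 genes, the number above 0.5 from LFD sham to HFD sham in crypt-labelled cells was 1, and 0 beyond a ratio of 1. The number below -0.5 was 0, and 1 with free RNA removed (by the fractions the study states, by fractions from immune-like cells, or with the profile of droplets of 200 to 2000 UMIs), at resolution 0.8, with the 7 genes kept for clustering or in cells above 10% mitochondrial UMIs. In villus-labelled cells the number above was 2, with 4 at a maximum of 10% mitochondrial UMIs, 1 in cells thinned to 1500 UMIs, 5 over all epithelial cells and 1 beyond a ratio of 1. The shares of all genes beyond 0.5 given earlier belong to the main setting. The counts under alternatives, here and below, therefore have no such share beside them.

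From HFD sham to HFD VSG the number above 0.5 in crypt-labelled cells was 1, with 2 after removal of free RNA by either set of fractions, with a minimum of 1500 genes, with markers counted against the median cluster or in cells above 10% mitochondrial UMIs. It was 0 at a maximum of 10% mitochondrial UMIs, with the profile of droplets of 200 to 2000 UMIs and beyond a ratio of 1. The number below -0.5 was 0, with 2 at a maximum of 10%. In villus-labelled cells the number below was 6, with 3 beyond a ratio of -1 and 1 in cells above 10% mitochondrial UMIs. Apart from the mitochondrial and threshold alternatives, whose construction changes the cells or the size asked, the cause was not tested. Counting single ratios and the shares of the 7 genes in droplets, 453 recomputed values moved by more than the counting interval and 185 by less, besides the 4 changes of sign above. Of 25 ratios within 0.5, 15 changed sign under 1 to 4 of the 15 alternatives, among them *Apoa4* from HFD sham to HFD VSG in crypt-labelled cells (0.47, lowest -0.45).

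No paired analysis was made, and the results come from no test. The crypt-labelled and villus-labelled libraries of a condition share a pool of mice and are no replicates of each other. Leaving out a replicate was not possible for the same reason. Depth limited the small classes and the low genes, and differences between mice or preparations cannot be told apart from those of diet and surgery.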

Other observations

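A cluster of 2004 cells, whose median depth was 0.203 times that of their libraries, carried 10 of 10 enterocyte markers but stayed unnamed, because *AY036118*, *Lars2*, *Gm42418* and *Gm26917*, genes of damaged droplets, were among its 10 leading genes, as was *Apob*. The 7 genes summed to 36306, 37610 and 37360 CPM there in the crypt-labelled LFD sham, HFD sham and HFD VSG libraries, and to 13097 and 20382 CPM in the villus-labelled LFD sham and HFD sham libraries. In the HFD VSG villi the 155 cells of this cluster held more immune than enterocyte marker UMIs (5178 and 2819 CPM), and 1 cell held 21.5% of the UMIs of the 7 genes, so that their 5932 CPM is not comparable with the other libraries.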
